A study of Caenorhabditis elegans with 6 samples.

Results

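Gq-phospholipase signalling is represented here by 8 genes, found by their exact names in tables of 46761 features per small RNA class. They are egl-8, egl-30, goa-1, egl-10, eat-16, ric-8, unc-73 and dgk-1. The set was selected on the pathway and on the measured 22G counts of egl-8 in these same High and Low libraries, so the High and Low values of the 8 genes are given as a description. Their errors and intervals come from the fit across all features, and no p-value is given for them. Small RNAs were sequenced from 3 High and 3 Low cultures of gravid adult Caenorhabditis elegans. The High cultures were grandchildren (F2) of P0 animals raised at 25 °C, and the Low cultures were grandchildren of animals raised at 16 °C. In both groups the P0 animals were moved to 20 °C as L4 larvae, 12 to a plate, and the F2 animals grew for 72 hours at 20 °C, 1000 to a plate, before RNA was taken from whole pooled worms. All animals were of strain BCN1050 in the N2 background, with the unc-119(ed3) mutation and the transgene crgIs1002, which holds mCherry under the daf-21 promoter with the unc-54 3′UTR and a wild-type unc-119 copy.

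In worms, the Gq protein EGL-30 activates the phospholipase C beta EGL-8, which cleaves a membrane phosphoinositide into inositol trisphosphate and diacylglycerol. In motor neurons diacylglycerol promotes the release of acetylcholine. The Go protein GOA-1 acts against this route, and the lipid kinase DGK-1 removes diacylglycerol. A second arm of Gq signalling runs through the Trio-family exchange factor UNC-73. The 22G RNAs measured over such genes are secondary small RNAs that RNA-dependent RNA polymerases make on a target transcript. They are not a measure of its mRNA, which the files used here do not hold. In whole worms a lower value cannot be assigned to fewer cells that carry a small RNA or to less of it per cell.

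The 22G tables held between 1380170 and 2685999 reads per library, the 26G tables between 18704 and 37706, and the 21U tables between 37630 and 59648. Values are read counts divided by a size factor of the library, called normalized counts. Low replicate 1 had the shallowest 22G library and the highest normalized 26G total, 57142 against 17491 to 25760 in the other 5 libraries. Normalized class totals gave an exact two-sided permutation p of 0.4 for 22G, 0.3 for 26G and 0.1 for 21U, where 0.1 is the smallest p that 3 against 3 libraries allow. Each library had 1 size factor for all 3 classes, and 22G held most of the reads. The scaling itself thus tends to level the 22G totals, so their p says little about the amount of 22G RNA. Of the marker genes for oocytes, all 8 of 8 carried 22G reads, with summed levels of 2338 to 2429 normalized counts in High worms and 2309 to 2514 in Low worms. The 6 muscle markers summed to at most 5.73 in High worms and 6.11 in Low worms, with myo-3, unc-15, unc-27 and tnt-2 at 0. The 8 neuron markers summed to 521 to 531 in High worms and 277 to 287 in Low worms, of which unc-47 and ric-3 were at 0. Among these egl-21 was higher (375 ± 14.0 in High worms and 35.6 ± 5.10 in Low worms, SD, n = 3 each) and unc-119, a gene that the transgene also holds, was lower (91.1 ± 17.9 in High worms and 190 ± 12.3 in Low worms), while the acetylcholine transporter gene unc-17 was at 54.7 ± 2.79 in High worms and 53.9 ± 10.1 in Low worms. The part of tissue make-up in the values below was not tested.

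The phospholipase gene stood apart from the other 7. egl-8, on chromosome V, had 631, 397 and 737 normalized counts of 22G RNA in High (replicates 1, 2 and 3), against 171, 147 and 145 in Low (replicates 1, 2 and 3). All 3 High libraries lay above all 3 Low libraries, and the lowest High value was 2.32-fold the highest Low value. The means were 588 ± 174 in High worms and 155 ± 14.5 in Low worms (SD, n = 3 each), a 3.81-fold ratio and a log2 difference of 1.88 ± 0.19 (SE; 95% interval 1.47 to 2.29) on the scale of log2(normalized count + 1). The reads behind these values numbered 573, 447 and 901 in High worms, against 113, 193 and 137 in Low worms. Of all 22G signal, egl-8 took 0.0283% in High worms and 0.00751% in Low worms, and it ranked 600 among all features by mean level in High worms and 2124 in Low worms.

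The spread of egl-8 within High was wider than counting alone gives. High replicate 2 had an exact 95% Poisson interval of 361 to 436 normalized counts, below those of High replicate 1 (580 to 685) and High replicate 3 (690 to 787). In Low worms the intervals of the 3 libraries overlapped, running from 141 to 206 in replicate 1, 127 to 170 in replicate 2 and 122 to 171 in replicate 3. These intervals cover counting error only, and reads without molecular identifiers are not independent molecules. For egl-8, High replicate 2 was at 0.58 of the mean of the other High libraries. Among the 530 features that passed the test as higher in High worms, this ratio had a median of 0.98 and quartiles of 0.862 and 1.11, and 20 features had a ratio below that of egl-8. High replicate 2 was the lowest High library in 195 of the 530 features (36.8%). These features passed a test that favours a small spread within groups, and the values are scaled per library. The comparison is therefore a description, and the cause of the low replicate 2 of egl-8 was not tested.

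**Figure D1:**
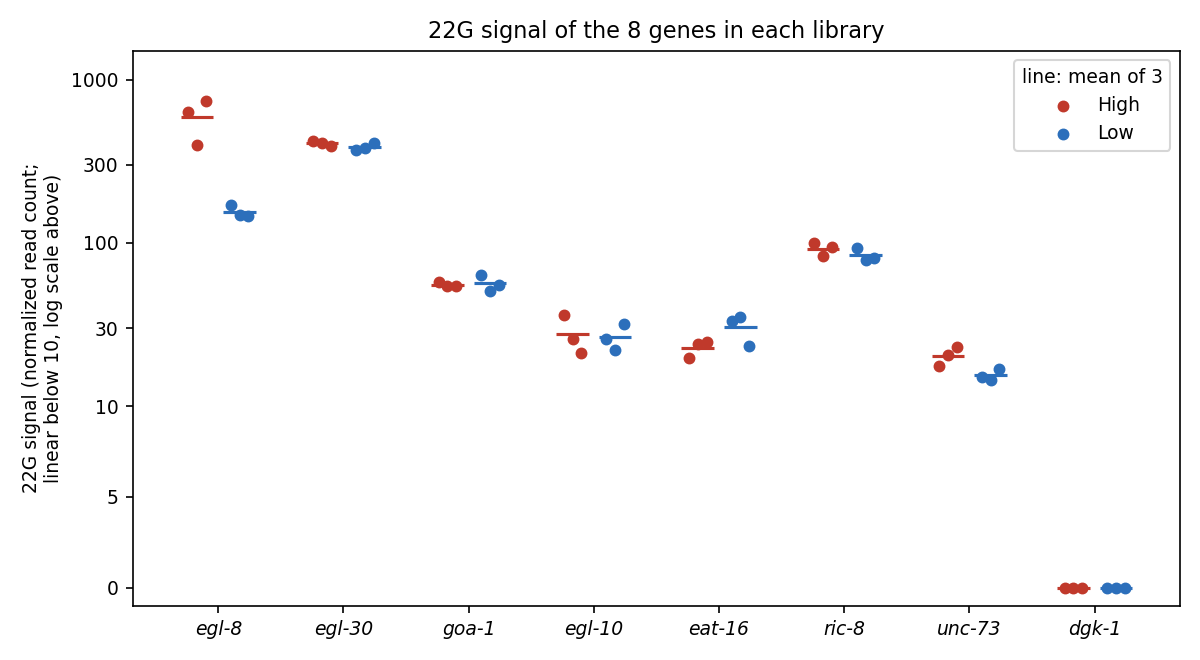
Points give the normalized 22G read count of each of the 8 genes in each library, High (red) left of Low (blue), and bars give the mean of 3 libraries; the axis is linear below 10 and logarithmic above. egl-8 sits between 397 and 737 in High worms and between 145 and 171 in Low worms, dgk-1 is at 0 in all libraries, and the other genes overlap between the groups except unc-73, where the gap is narrow.

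The genes upstream of the phospholipase showed no such gap. egl-30, on chromosome I, encodes the Gq alpha subunit that switches EGL-8 on. It had 422, 409 and 390 normalized counts in High worms and 370, 382 and 411 in Low worms. The groups overlapped, with a log2 difference of 0.07 ± 0.08 (95% interval -0.10 to 0.24). ric-8, on chromosome IV, encodes a factor that helps G alpha subunits work. It had 99.1, 82.6 and 94.1 in High worms and 92.4, 77.9 and 80.4 in Low worms, a difference of 0.14 ± 0.13. eat-16, on chromosome I, encodes the regulator of G protein signalling (RGS) protein that turns EGL-30 off. It had 19.8, 24.0 and 24.6 in High worms and 33.3, 35.1 and 23.3 in Low worms. The mean was lower in High worms, by a log2 difference of -0.39 ± 0.23 with a 95% interval of -0.91 to 0.12, and Low replicate 3 lay among the High libraries. In the annotation eat-16 overlaps ocrl-1 on the opposite strand, which had 130 ± 24.3 in High worms and 136 ± 4.43 in Low worms. No source used here gives the strand counted, so reads of these genes cannot be told apart where they overlap.

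The opposing Go arm showed overlapping groups as well. goa-1, on chromosome I, which encodes the Go alpha subunit, had 57.3, 54.2 and 54.0 normalized counts in High worms and 63.6, 50.4 and 55.0 in Low worms, a log2 difference of -0.03 ± 0.15. egl-10, on chromosome V, encodes the RGS protein that turns GOA-1 off. It had 36.3, 25.8 and 21.3 in High worms and 25.8, 22.2 and 31.8 in Low worms (0.04 ± 0.25), and it overlaps F28C1.1 on the opposite strand (66.1, 70.2 and 82.7 in High worms and 43.9, 89.4 and 93.1 in Low worms). dgk-1, on the X chromosome, had no read in any library of any class. In the 22G class a count of 0 leaves room for about 3 expected reads, a one-sided 95% bound from counting error alone. This is 2.46 to 3.30 normalized counts over the High libraries and 2.29 to 4.55 over the Low libraries.

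The second arm was measured at a low level. unc-73, on chromosome I, encodes an exchange factor for small GTPases that acts downstream of EGL-30. It had 17.6, 20.4 and 22.9 normalized counts in High worms and 15.2, 14.5 and 16.9 in Low worms. The groups did not overlap, by a margin of 1.04-fold between the lowest High and the highest Low library, and the log2 difference was 0.36 ± 0.25 (95% interval -0.18 to 0.91).

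A test across the class needed a mean of at least 5 normalized counts, which 9402 features and 7 of the 8 genes reached in 22G. limma-trend with an adjusted p threshold of 0.05 called 780 of the 9402 features (8.30%), 530 of them higher (5.64%) and 250 lower (2.66%) in High worms. Of the 7 genes fitted, 1 was past the threshold, egl-8, whose difference in these libraries was known when the set was made, so nothing is read from this count. In 2 of the 7, egl-8 and unc-73, the groups did not overlap, as in 22.7% of all tested features. The median log2 difference of the 6 tested genes other than egl-8 was 0.06, beside 0.01 over all tested features. By size of difference egl-8 was number 197 among the 530 features called higher.

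Summed over the 7 genes other than egl-8, the 22G signal was 652, 616 and 606 normalized counts in High worms and 600.1, 582 and 618 in Low worms, so the groups overlapped. With egl-8 included the sum was 1283, 1013 and 1344 in High worms and 771, 730 and 763 in Low worms. egl-8 thus made up 47.8% ± 7.93 of the summed signal in High worms and 20.5% ± 1.62 in Low worms (SD, n = 3 each).

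Per kilobase of annotated exon, the level of egl-8 was 104 ± 30.9 normalized counts in High worms and 27.4 ± 2.58 in Low worms (SD, n = 3 each), and that of egl-30 was 104 ± 4.11 in High worms and 98.6 ± 5.34 in Low worms. In High worms these 2 genes had the highest levels per kilobase, with overlapping ranges, and the others followed in the order ric-8, goa-1, eat-16, egl-10 and unc-73. In Low worms egl-30 was highest and egl-8 came after ric-8 (34.6 ± 3.22) and goa-1 (27.9 ± 3.32). The Low range of egl-8, 25.8 to 30.4 per kilobase, overlapped that of goa-1, 25.0 to 31.5. At the lower end eat-16 (9.46 ± 1.07 in High worms and 12.7 ± 2.65 in Low worms) lay above egl-10 (6.17 ± 1.72 in High worms and 5.89 ± 1.08 in Low worms), and unc-73 was lowest of the genes with reads (2.03 ± 0.26 in High worms and 1.55 ± 0.13 in Low worms). Exon lengths are from Ensembl release 115, which need not be the annotation the counts were made with.

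The annotated genes next to egl-8 that have a row in the tables showed no gap of this kind. The nearest protein-coding gene on one side with a row in the tables, ife-3, which encodes a cap-binding translation factor, had 122 ± 11.8 normalized counts in High worms and 123 ± 5.68 in Low worms. It did not pass the test (log2 difference -0.02 ± 0.11, limma adjusted p = 0.958). On the other side B0348.2 and B0348.1 had no 22G read, srt-52 had 1 read, in Low replicate 2, and cyp-29A3 averaged 1.62 in High worms and 2.38 in Low worms. A snoRNA and a piRNA locus annotated inside egl-8 had no 22G read.

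The 22G pattern most like that of egl-8 belonged to another gene of phosphoinositide metabolism. Features were compared by the distance between their log2(normalized count + 1) values over the 6 libraries, each centred on its own mean. pitp-1, on chromosome III, encodes a phosphatidylinositol transfer protein that carries the lipid precursor used by phospholipase C. It was the nearest of 9058 features compared, at a distance of 0.34. pitp-1 had 85.9, 61.3 and 93.3 normalized counts in High worms, against 22.7, 24.4 and 20.1 in Low worms. As in egl-8, High replicate 2 was the lowest of the High libraries and all High values lay above all Low values. The next nearest were W05H12.1 (distance 0.488), Y57G7A.5 (0.49), ift-20 (0.493), which encodes an intraflagellar transport protein, and sulp-6 (0.511), of the sulfate permease family. Being chosen for a pattern near that of egl-8, all 5 had replicate 2 as the lowest High library, and their ratios of High to Low means ran from 3.09-fold in Y57G7A.5 to 5.17-fold in ift-20. The next gene of the pathway lists, lfe-2, came at rank 141. The likeness is over 6 libraries that share depth and group. A like difference between the groups by itself brings a feature nearer to egl-8, and the size of its part here was not measured.

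**Figure D2:**
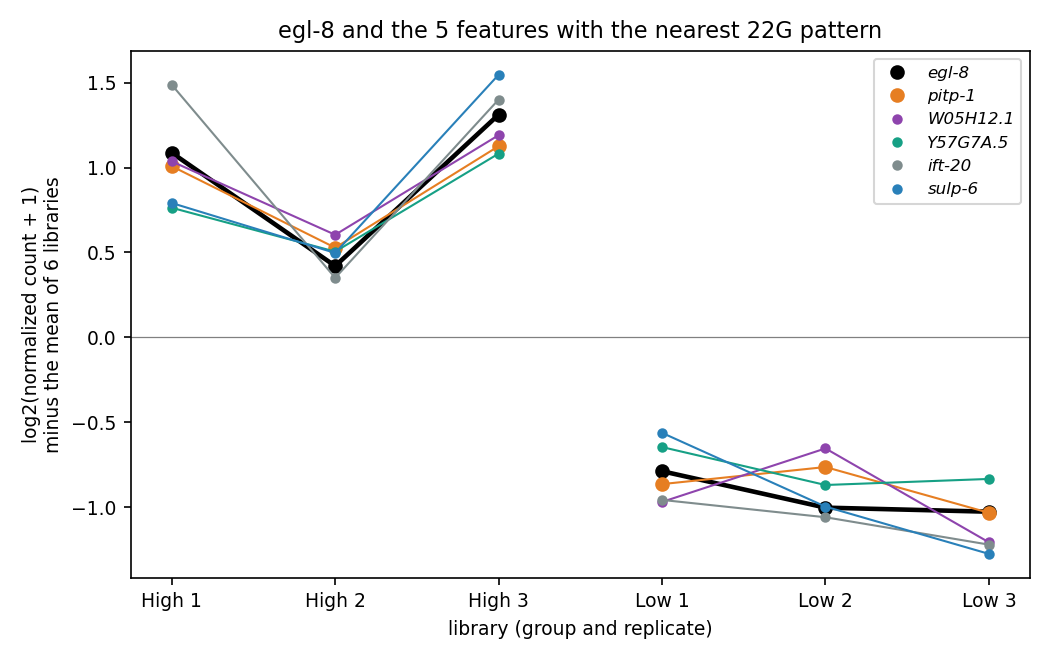
The y axis is log2(normalized 22G count + 1) minus the mean of the 6 libraries, for egl-8 (black) and the 5 features nearest to it; lines join libraries of a group to guide the eye and carry no order. pitp-1, at a distance of 0.34, follows egl-8 in High worms, where replicate 2 is lowest in all 6 features.

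pitp-1 passed the test across all features, with 80.2 ± 16.8 normalized counts in High worms and 22.4 ± 2.18 in Low worms and a log2 difference that came to 1.77 ± 0.20 (SE; adjusted p = 0.000109, limma). It overlaps rpl-37 on the opposite strand, which had 24.1 ± 4.92 in High worms and 24.5 ± 5.33 in Low worms and was not called. Under the 16 alternative settings the adjusted p of pitp-1 stayed between 3.59e-07 and 0.00754. A feature picked for its likeness to egl-8 differs between the groups by that choice, so these p-values of pitp-1 are a description. The list it belongs to held 13 genes of phospholipase C and phosphoinositides, of which 10 were tested, 1 was higher and 1 lower in High worms, and the median log2 difference was -0.05. The lower gene was ppk-3, whose protein is a phosphoinositide kinase of endosomes. It had 71.6, 79.1 and 76.9 in High worms and 132, 129 and 109 in Low worms, so that it fell by 0.69 ± 0.12 on the log2 scale (limma adjusted p = 0.00346; 0.000897 to 0.0265 under the alternatives). pll-1, a phospholipase C-like gene and the most abundant of the list, was at 1920 ± 78.2 in High worms and 2242 ± 178 in Low worms and did not pass (-0.22 ± 0.07, adjusted p = 0.0822 by limma). It passed under 4 of the 16 alternatives (0.0314 to 0.384 over all 16). The other 4 phospholipase C genes of the list, named after their values were seen, differed widely in 22G signal. plc-4 was at 106 ± 9.09 in High worms and 113 ± 4.51 in Low worms and did not pass (-0.09 ± 0.11, limma adjusted p = 0.773). plc-2 was at 6.27 ± 3.27 in High worms and 5.83 ± 1.61 in Low worms and did not pass (0.02 ± 0.48, limma adjusted p = 0.993), and plc-1 and plc-3 had 1 and 12 reads in all 6 libraries together, too few for the test.

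Over the 8 lists of other genes in and around this pathway, 140 of 141 genes had a row under the name used, 114 had a 22G read and 68 were tested. Of these 68, 2 were higher in High worms (gpa-1 and pitp-1) and 3 lower (gsa-1, ppk-3 and ser-5), 7.35% in all beside 8.30% of all tested features, and the median log2 difference was -0.0054 beside 0.01. Without High replicate 3 the calls were 3 (ppk-3, pitp-1 and ser-5). Over the 16 alternatives ppk-3, pitp-1 and ser-5 were called in all 16. Each single list is small beside a share of 8.30% over all tested features, so nothing is read from its count of calls.

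**Figure D3:**
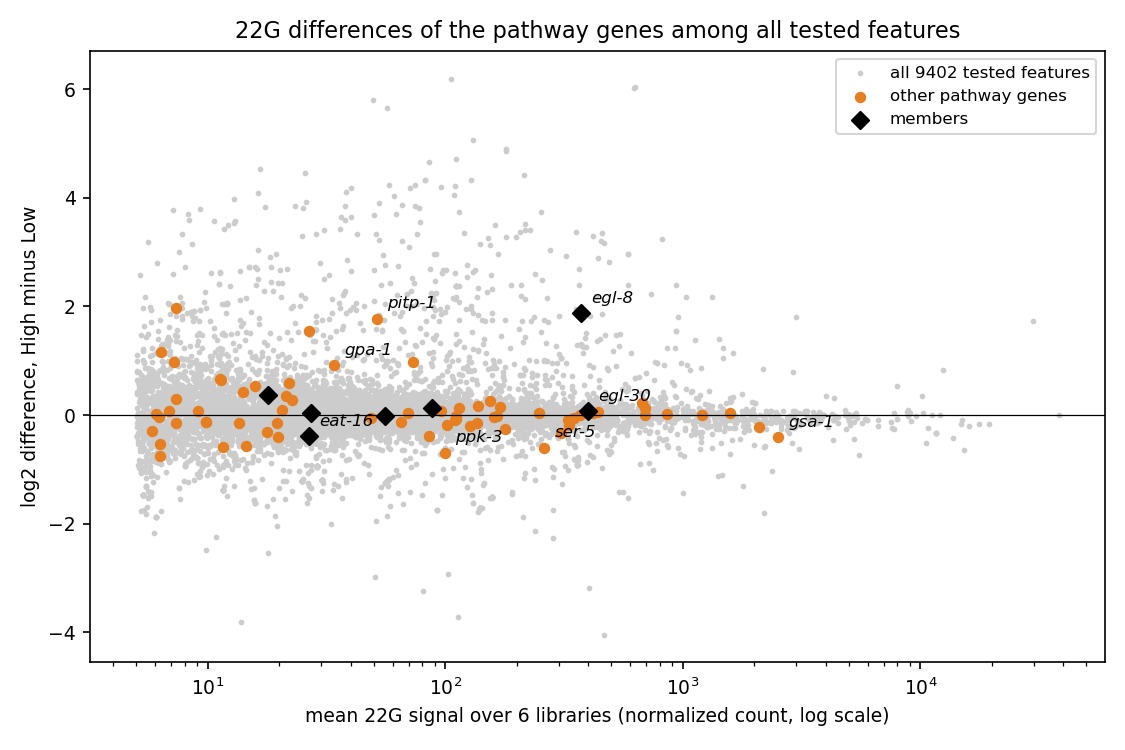
Each grey point is 1 of the 9402 tested features, with its mean 22G signal in normalized counts (log scale) on the x axis and its log2 difference, High minus Low, on the y axis. Of the members (black diamonds) egl-8 lies at 1.88 while the others lie between -0.39 and 0.36. Most other pathway genes (orange) lie near 0. Among those far above it are dkf-1 at 1.97, pitp-1 at 1.77 and rgs-4 at 1.55, of which pitp-1 alone was called.

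Among 24 other G protein subunit genes 8 were tested, 1 higher and 1 lower, with a median log2 difference of -0.10. gsa-1, which encodes the Gs alpha subunit that drives the parallel cAMP route, carried more 22G RNA than any other listed subunit gene. It had 2339, 2117 and 2039 normalized counts in High worms, against 2967, 3050 and 2593 in Low worms, and all High libraries lay below all Low libraries. It fell by 0.41 ± 0.08 on the log2 scale (SE, limma adjusted p = 0.0047). The call was lost in limma without a trend (0.138) and without High replicate 3 (0.0738), and over the 16 alternatives the adjusted p ran from 5.28e-06 to 0.138. gpa-1, a G alpha subunit gene of chemosensory neurons, had 36.3, 63.95 and 36.0 in High worms against 22.7, 22.2 and 23.3 in Low worms. It rose by 0.92 ± 0.24 (limma adjusted p = 0.0407; 0.0209 to 0.182 under the alternatives). The call was lost under 7 of the 16 alternatives, among them without High replicate 2 (0.182), where the difference was 0.65, without High replicate 3 (0.11) and without Low replicate 1 (0.0772), 2 (0.118) or 3 (0.089). The annotation shows the noncoding RNA genes T19C4.11 and T19C4.16 overlapping gpa-1. The name T19C4.11 covers an ncRNA on the opposite strand and a snoRNA on the same strand, and T19C4.16 lies on the opposite strand. The entries of T19C4.11 and T19C4.16 hold the same values and were called higher in High worms (413 ± 33.1 in High worms and 199 ± 21.4 in Low worms). T19C4.17, also overlapping on the opposite strand, had 43.7 ± 4.28 in High worms and 58.3 ± 12.0 in Low worms and was not called. Reads of these genes cannot be told apart where they overlap. The 9 subunit genes with no 22G read were gpa-3, gpa-5, gpa-6, gpa-8, gpa-10, gpa-12, gpa-13, gpa-18 and gpc-1.

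Regulators of G proteins gave 0 calls among 15 tested of 19 genes, with a median log2 difference of 0.02. Among the tested genes rgs-8.1 and rgs-8.2 hold the same values in every library and are counted separately. rsbp-1 encodes the binding protein that holds EGL-10 and EAT-16 at the membrane. It was the most abundant of the list, at 859 ± 45.0 in High worms and 855 ± 155 in Low worms, and did not pass (0.02 ± 0.11, limma adjusted p = 0.957). The sign of its difference turned under 3 of the 16 alternatives. rgs-4, chosen after its values were seen, had 74.9, 41.7 and 8.18 in High worms and 21.2, 9.17 and 4.23 in Low worms. Its groups overlapped, and its difference of 1.55 ± 0.71 did not pass (limma adjusted p = 0.292).

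Downstream of phospholipase C, 6 of 11 genes of diacylglycerol effectors and kinases were tested and 0 called, with a median log2 difference of 0.11. dkf-2, a protein kinase D gene, was at 120 ± 15.1 in High worms and 109 ± 11.7 in Low worms (0.13 ± 0.13, limma adjusted p = 0.713). dkf-1, chosen after its values were seen, had 8.81, 9.77 and 16.4 normalized counts in High worms and 0, 3.82 and 5.29 in Low worms, with a difference of 1.97 ± 0.67 that did not pass (limma adjusted p = 0.131). unc-13, which encodes the diacylglycerol-binding protein of synaptic vesicle priming and was chosen after its values were seen, had no 22G read in any library. Of 10 transmitter release genes 6 were tested and 0 called, with a median of -0.04. The most abundant was unc-10, the RIM gene of the active zone, at 1597 ± 62.8 in High worms and 1555 ± 114.6 in Low worms (0.04 ± 0.07, adjusted p = 0.847 by limma).

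In the small GTPase branch 13 of 22 genes were tested and 0 called, with a median log2 difference of 0.01. rga-3, a GTPase-activating protein gene, was at 1209 ± 27.5 in High worms and 1204 ± 15.2 in Low worms (0.0054 ± 0.06, limma adjusted p = 0.978), and the sign of this difference turned under 4 of the 16 alternatives, equal class totals and DESeq2 among them. Of 13 genes of the Gs and cAMP branch 7 were tested and 0 called, with a median of -0.09. pde-1, a cyclic nucleotide phosphodiesterase gene, was at 728 ± 74.3 in High worms and 622 ± 39.8 in Low worms (0.22 ± 0.09, adjusted p = 0.18 by limma). kin-1, which encodes the catalytic subunit of protein kinase A and was chosen after its values were seen, had 167, 70.2 and 63.0 in High worms and 45.5, 44.3 and 46.6 in Low worms (0.98 ± 0.30, adjusted p = 0.0838 by limma), and it passed under 3 of the 16 alternatives, the replicate block, no filter and DESeq2.

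Of 29 receptor genes of transmitters 3 had enough 22G signal for the test, 0 were higher and 1 lower, with a median log2 difference of -0.14. ser-5, which encodes a serotonin receptor, had 204, 223 and 194 normalized counts in High worms, against 288, 331 and 323 in Low worms, with no overlap. It fell by 0.60 ± 0.09 (SE, limma adjusted p = 0.00128; 0.000107 to 0.0337 under the alternatives). Among the 10 receptor genes with no 22G read was gar-3, chosen after its values were seen, which encodes a muscarinic receptor that signals through EGL-30.

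**Figure D4:**
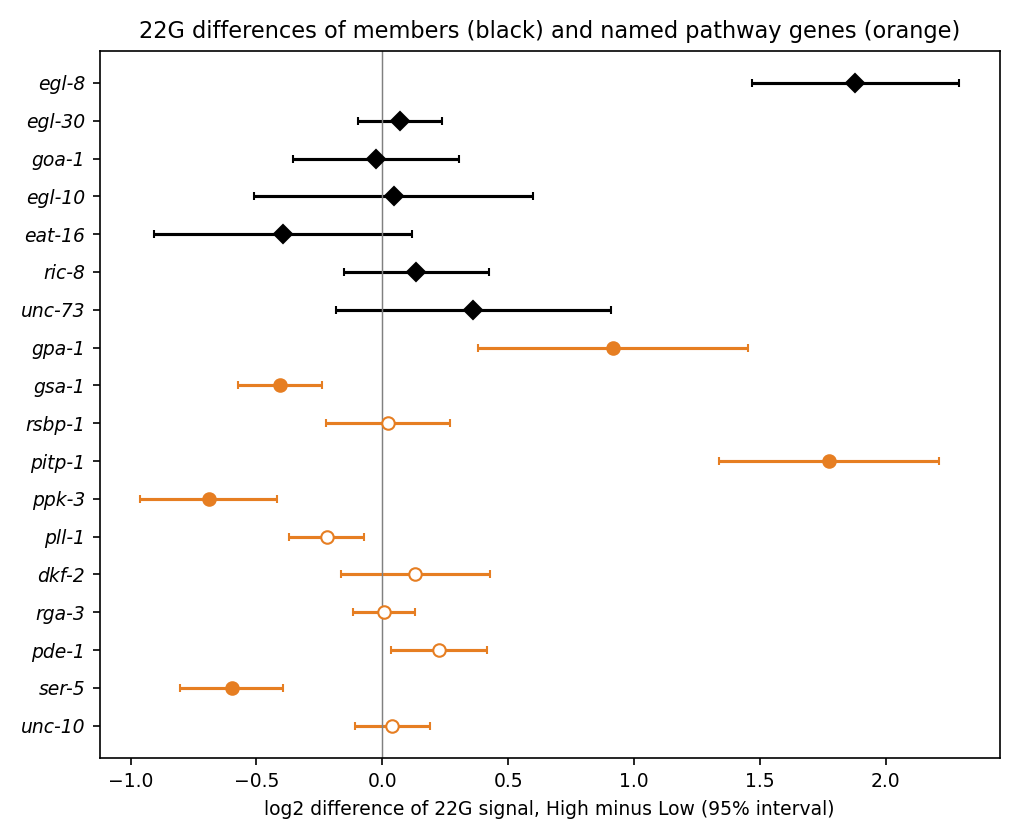
Log2 differences of 22G signal, High minus Low, with 95% intervals from limma, for the 7 members with enough signal (black diamonds, top) and the 11 named pathway genes (orange); filled orange points passed an adjusted p of 0.05, and the black diamonds carry no call. egl-8 (1.88) and pitp-1 (1.77) lie far from the rest. Of the filled orange points gsa-1, ppk-3 and ser-5 lie below 0. The open point of pll-1 (-0.22, 95% interval -0.37 to -0.07) does too, as do eat-16 and goa-1, whose intervals reach across 0.

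The other small RNA classes held few reads of the 8 genes, 12 reads of 26G and 28 of 21U RNA beside 6132 of 22G RNA. None of the 8 reached the mean of 5 normalized counts there, so none was tested. In the 26G class limma called 0 of 272 features (0%), with 3 at an unadjusted p under 0.05 and 0 called by edgeR and 0 by DESeq2, and in the 21U class it called 1 of 592 (0.169%), frm-1, a gene outside the pathway lists. egl-8 had 1, 0 and 0 reads of the 26G class in High worms and 0, 0 and 0 in Low worms. In the 21U class it had 0, 4 and 4 reads in High worms and 1, 1 and 1 in Low worms, so High replicate 1 lay below the Low libraries. egl-30 and ric-8 had 5 reads each in the 26G class, the most of the 8 genes, of which 2 and 4 were in High worms and 3 and 1 in Low worms. egl-10, eat-16, unc-73 and dgk-1 had no 26G read, and dgk-1 had no 21U read. Among the other pathway genes 0 reached the minimum in 26G. In 21U 5 did, gsa-1, gpr-1, rga-3, rga-4 and pde-1, and 0 of them were called by limma, with adjusted p-values from 0.467 for gsa-1 to 0.983 for gpr-1. pitp-1 had no read in either class.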

How the data were processed

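Per the labels' protocols, RNA was treated with phosphatase and polynucleotide kinase and size-selected small RNA was sequenced. The authors deposited 1 table of normalized signal per small RNA class, in which read counts had been divided by library size factors. Nonzero values were whole multiples of 1 step per library (100% within 0.01 reads), so whole reads were recovered. DESeq2 1.8.1, featureCounts 1.4.6, Bowtie 1.1.1 and cutadapt 1.7.1 appear in the submitters' processing notes. No source used here gives their settings, the genome build, the class definitions, the strand or the treatment of multiply mapping reads, and coordinates are therefore left out. Size factors ran from 0.66 to 1.31.

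Features with a mean of at least 5 normalized counts were fitted by limma-trend (limma 3.58.1 in R 4.3.3) as log2(normalized count + 1), with the two-sided contrast High minus Low. P-values were adjusted over each class by Benjamini-Hochberg, at a threshold of 0.05. Alternatives included edgeR 4.0.16 and DESeq2 1.42.0 on recovered reads. Chromosomes, strands, overlaps, neighbours and exon lengths come from Ensembl release 115, where 41180 of 46761 features (88.1%) matched by name. In simulated 22G data on 9402 features the test recovered 66% of 2-fold and 84% of 4-fold changes, with 6.83% of its calls on unchanged features. In the 26G class (272 features) it recovered 6.67% and 56.7%, with 13.6% of calls on unchanged features, and in the 21U class (592 features) 23% and 80%, with 4.63%. The simulation changed 200 features in 22G, 60 in 26G and 200 in 21U, and gave the libraries no shift in class total. The share of changed features in the data is not known, so these rates need not hold for the data.

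Named pathway genes are, per list, up to 3 called genes with the largest difference and the gene with the highest mean, and, beside egl-8, the 5 nearest patterns. The rule finds 9 members, of which 1 is not reported here. Members and lists were chosen with earlier results of these data known. Nothing in the labels pairs equal replicate numbers across groups. The labels name the libraries biological replicates, and p-values weigh the group difference against the spread between these samples. In limma-trend this spread is drawn toward a trend over all features. Plots used Python 3.11.15 and Matplotlib 3.10.9. dkf-1, kin-1, lfe-2, plc-1, plc-2, plc-3, plc-4, unc-13, gar-3, frm-1, rgs-4, rgs-8.1 and rgs-8.2 are named beyond that rule, picked with their values known.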

Additional observations from a re-analysis of the deposited data

How the results depend on the processing

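The log2 difference of egl-8 ran from 1.69 (without High replicate 3) to 2.14 (without High replicate 2) over 16 alternative settings, as a description, since its difference in these libraries chose the set. The differences of goa-1 (-0.10 to 0.06) and egl-10 (-0.16 to 0.21) took either sign. The number of 22G features called ran from 524 to 897 over the alternatives, and from 563 to 752 with 1 library left out. The calls over the other pathway genes were 8 with the replicate block, against 5 without it, and ran from 3 to 5 with 1 library left out. The block added rgs-4, pll-1 and kin-1, and no filter added kin-1 and tom-1. The block called 782 features of 22G and 0 of 21U, against 780 and 1 without it. Equal replicate numbers share only a number in the labels, and deviations of same-numbered libraries correlated by 0.03, 0.05 and 0.02 in 22G. In 26G they correlated by -0.08, -0.14 and -0.28, and in 21U by 0.08, -0.0012 and -0.06 (replicates 1, 2 and 3). In the 21U class the count of 1 became 28 with no filter, 2 with a minimum mean of 20, 3 with TMM scaling and 2 in edgeR, and ran from 0 to 33 with 1 library left out. In the 26G class leaving out 1 library gave 0 to 1. Small differences turned negative for rsbp-1 in DESeq2 (-0.0058) and without 1 library (-0.10 to 0.16), for rga-3 with equal class totals (-0.012), in DESeq2 (-0.010) and without 1 library (-0.011 to 0.022), and for unc-10 without 1 library (-0.015 to 0.092). The cause was not tested. Normalized class totals kept their direction with 1 library left out, with log2 ratios of 0.0041 to 0.029 (22G), -1.13 to -0.22 (26G) and -0.32 to -0.11 (21U). Scaling to equal class totals moved the median of all features from -0.53 to 0.09 in 26G and from -0.38 to -0.17 in 21U. In the 26G and 21U classes no member reached the minimum mean, so none could be tested.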
